A study of Mus musculus with 20 samples.

Results

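The regions described here are the stretches of the mouse genome that were strongly open at every stage of a neuronal differentiation. The regions were chosen by their measured values: a region was taken where its deposited log2 FAIRE enrichment was at least 1.8 in neuronal progenitors (NP), in day 1 neurons (TND1) and in day 10 neurons (TND10). This rule took 1031 of 62877 regions, or 1.64% of the table. The cells carry the strain label 159.2, the labels give the FAIRE samples no treatment, and each stage has 2 FAIRE libraries, 6 in all. The deposited value merges the 2 libraries of a stage, so it has no replicate error and no test between stages was possible. All FAIRE values below were used by the rule or come from the same libraries, and they are given as a description. The regions carry an identifier with a running number, which names them here, and a width. Their positions, sequences and neighbouring genes are not analysed here.

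FAIRE separates DNA that formaldehyde has not crosslinked to histones, and sequencing it marks stretches from which nucleosomes are displaced. Promoters of active genes, enhancers and sites of DNA-binding factors are recovered this way. Stretches open in many cell types are known to include the promoters of housekeeping genes and binding sites of the insulator protein CTCF, while enhancers tend to open and close as progenitors leave the cell cycle and become neurons. Which of these classes the 1031 regions belong to was not tested. In such bulk samples, fewer cells in which a region is open and a smaller opening per cell cannot be told apart.

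The 1031 regions lay well above the rest of the table at each stage. Their median log2 enrichment was 3.08 in progenitors (lowest 1.86, highest 5.47), 2.77 at day 1 (lowest 1.88, highest 5.71) and 1.97 at day 10 (lowest 1.80, highest 4.0). The medians over all regions of the table were 0.99 in progenitors, 0.79 at day 1 and 0.44 at day 10. At day 10 the values crowded against the threshold, while in progenitors and at day 1 most lay well above it. The middle 50% of the regions spanned 2.86 to 3.28 in progenitors and 2.56 to 2.99 at day 1, but 1.87 to 2.14 at day 10.

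**Figure D1:**
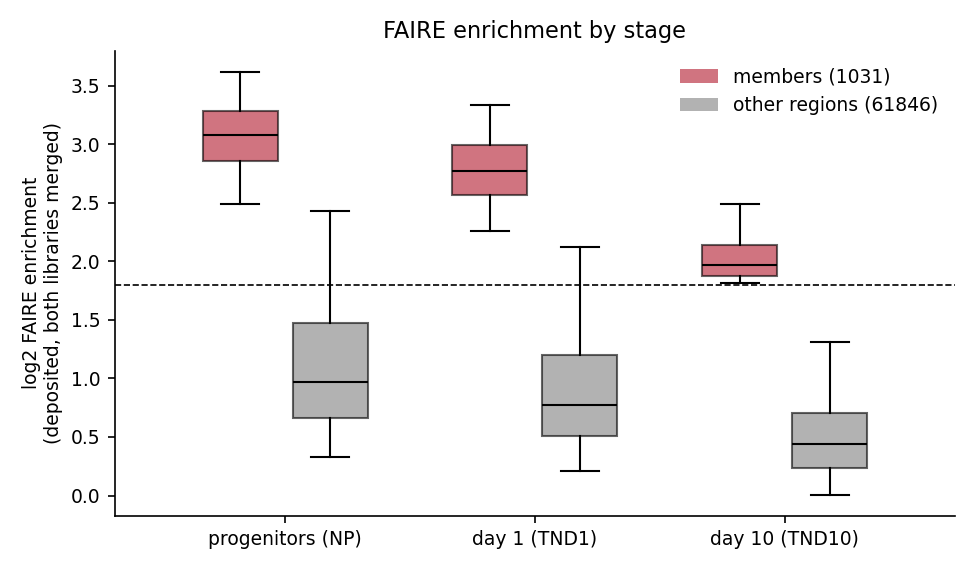
Deposited log2 FAIRE enrichment (y axis) at the 3 stages (x axis) for the 1031 regions (red) and for the 61846 other regions of the table (grey). Boxes give the quartiles with the median as a line, whiskers the 5th and 95th percentiles, and the dashed line the threshold of 1.8, which the red boxes approach at day 10.

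Day 10 decided which regions were taken. The threshold was met by 10758 regions in progenitors and by 7126 at day 1, but by 1047 at day 10. Of those 1047, 1031 also met it at the other two stages, which is 98.5% of them. The 16 exceptions were open at day 10 and under the threshold at an earlier stage. Of the 6682 regions at or above 1.8 in both progenitors and day 1 neurons, 5651 fell short at day 10. These 5651 regions are the nearest comparison set and are called the early-stage regions below. Day 10 was the lowest stage in 1025 of the 1031 regions, day 1 in 4 and progenitors in 2. It was also the lowest in 78.8% of all regions, and in all 5651 early-stage regions, as their definition requires.

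The strongest regions by their lowest stage were 3 with consecutive numbers. Region 26049, 1806 bp wide, had log2 enrichments of 5.47 in progenitors, 5.71 at day 1 and 4.0 at day 10. Region 26050 (1674 bp) had 5.40, 5.66 and 3.94 at the same stages, and region 26051 (925 bp) had 5.31, 5.62 and 3.98. In all 3, day 1 was the highest stage and day 10 the lowest. Region 11560 (592 bp) followed with 4.61 in progenitors, 4.86 at day 1 and 3.29 at day 10, then region 36267 (361 bp) with 4.68, 4.94 and 3.28. Regions 47370 and 31287 came next, with 3.24 and 3.11 at day 10, and again had their highest value at day 1. These 7 regions share the order day 1, progenitors, day 10 in the deposited values. Regions 26049, 26050, 26051, 11560 and 47370 are among those with over 100 reads in the reference, described below. Region 36267 had 90 reference reads and region 31287 had 41, against a median of 23 over the 1031.

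The remaining 3 of the 10 strongest had the order that prevailed among the 1031 in the deposited values. Region 22640 (947 bp) had 4.25 in progenitors, 3.92 at day 1 and 3.08 at day 10. Region 26484 (849 bp) had 4.15, 3.74 and 3.03, and region 29821 (758 bp) had 3.89, 3.55 and 3.0. A stepwise decline over the stages was found in 912 of the 1031 regions, or 88.5%. A peak at day 1 was found in 105, or 10.2%. A stepwise rise was found in none of them. Over all regions of the table the shares were 58.1% for a decline, 21.4% for a peak at day 1 and 2.10% for a rise. Over the early-stage regions they were 85.1%, 13.3% and 0%, where the definition of that set allows no rise. The split between a decline and a peak at day 1 hardly set the chosen regions apart from these. All these orders are those of the deposited values and depend on the scale. With the reads of each stage scaled to the same total, day 1 was above progenitors in 528 chosen regions and below in 503.

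**Figure D2:**
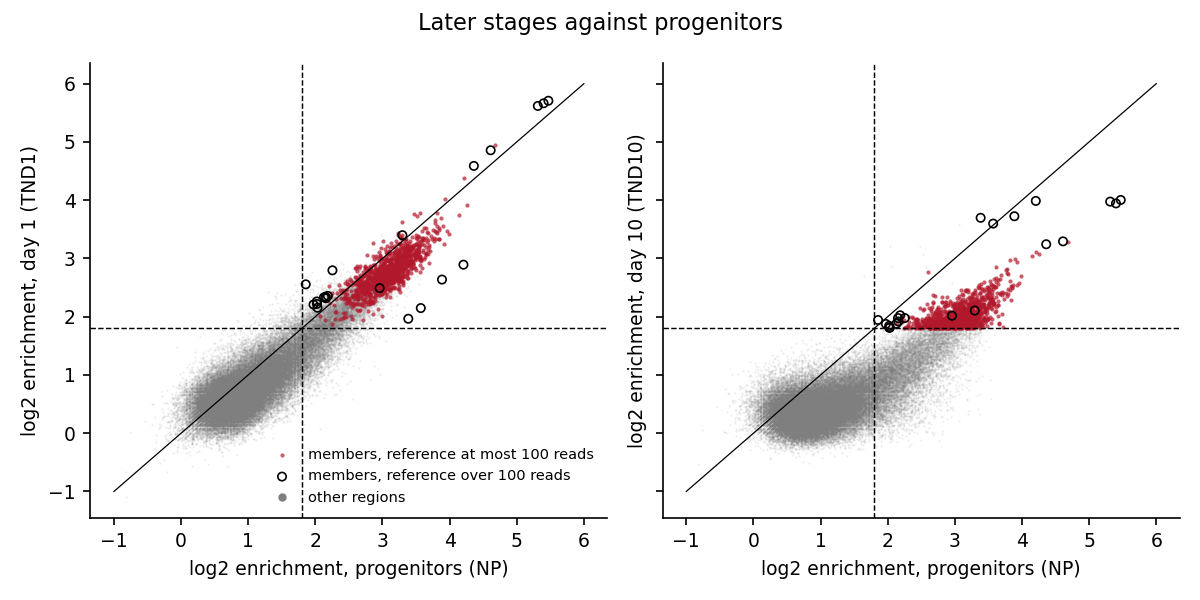
Deposited log2 enrichment at day 1 (left panel, y axis) and at day 10 (right panel, y axis) against that in progenitors (x axis), 1 point per region. Red points are the chosen regions, black circles the 21 of them with over 100 reads in the reference, grey points all other regions, dashed lines the threshold of 1.8 and the solid line equal values; most red points lie under that line at day 10.

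The reads behind these values could be recovered. A deposited value was a log2 ratio, with the stage's reads plus 16 on top and a reference's reads times 0.305, plus 16, below. The same reference stood behind all 3 stages, and the reads came out whole for all 62877 regions (tolerance 0.0001 reads). The identity of the reference was not given in the sources used here. The chosen regions had a median of 178 reads in progenitors, 142 at day 1 and 76 at day 10, with 23 reference reads. Over all regions of the table the reads summed to 2994364 in progenitors, 2370744 at day 1 and 1686303 at day 10. The stages' reads entered the values unscaled, so a shallower library and a less open region give the same lower value. A matching of the libraries in depth beforehand was not given in the sources used here.

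Per kb of width, the 1010 chosen regions with at most 100 reference reads held a median of 301 reads in progenitors, 242 at day 1 and 132 at day 10. The other regions with at most 100 reference reads held 93.5, 71.9 and 41.0 reads per kb. In the reference the medians were 37.6 reads per kb in the chosen regions and 39.8 in those other regions. The 2 sets lay apart in the FAIRE reads, for which the rule selects, and close together in the reference reads. The early-stage regions with at most 100 reference reads were intermediate in FAIRE reads, with 208, 169 and 72.9 per kb. In the reference they held 35.5 reads per kb, under both medians above.

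Counting error was larger than the margin by which most regions passed. At day 10, the stage that decided the choice, the exact 95% Poisson interval of the reads, with the reference taken as fixed, had a median width of 0.55 on the log2 scale. Its lower bound stayed at or above 1.8 at day 10 in 345 of the 1031 regions, against 1017 at day 1 and 1029 in progenitors. At every stage at once it did so in 344 regions, or 33.4%. Among the other regions, 1670 had an upper bound of at least 1.8 at every stage. These intervals cover counting error only and leave out variation between libraries. They also treat reads as independent, which sequenced PCR copies are not.

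The threshold had no gap around it. The 5 regions just inside it (5282, 6329, 9233, 14968 and 52368) all had 61 reads at day 10, a reference of 20 and a log2 enrichment of 1.80, with an interval of 1.5 to 2.09. Just outside it, region 61308 had 62 reads at day 10 over a reference of 21, which gave 1.7997 with the same interval to 2 decimals. The next 4 outside (7678, 54138, 54864 and 1204) lay between 1.7985 and 1.7993. The regions on the 2 sides thus differed by less than the counting error of either.

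Between the regions, values differed at each stage, within the limit the threshold sets. The SD between the chosen regions was 0.37 in progenitors, 0.38 at day 1 and 0.27 at day 10. The median counting SD of a region was 0.10, 0.11 and 0.14 at the same stages, with the reference taken as fixed. With the 21 regions of over 100 reference reads left out, the SD between regions was 0.33, 0.33 and 0.22. By rank among all 62877 regions, the median position of the chosen regions was 732 in progenitors, 708 at day 1 and 527 at day 10. The lowest placed was at rank 9988 in progenitors and 6318 at day 1. Of the 1031 highest regions of a stage, 647 were among the chosen in progenitors, 653 at day 1 and 1017 at day 10.

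The chosen regions were wide. Their median width was 586 bp, with quartiles of 493.5 and 713.5 bp, against 231 bp over the other regions and 481 bp over the early-stage regions. At least 500 bp was reached by 761 chosen regions (73.8%) and by 4341 others (7.02%). No chosen region was narrower than 254 bp, although 36190 regions, 57.6% of the table, were. From 254 bp on, the share chosen was higher in each wider class. It was 0.496% of the 9066 regions of 300 to 399 bp (exact 95% binomial interval 0.362% to 0.664%), 4.53% at 400 to 499 bp and 11.6% at 500 to 599 bp. It reached 16% at 600 to 799 bp, 23.3% at 800 to 999 bp and 29.9% of the 137 regions of 1000 bp or more (22.4% to 38.3%). The intervals of the 2 widest classes overlap. With the deposited offset, a region needs at least 40 reads at every stage to reach 1.8 even with no reference reads. With an offset of 1 read in its place the same threshold took 19124 regions with a median width of 311.5 bp.

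**Figure D3:**
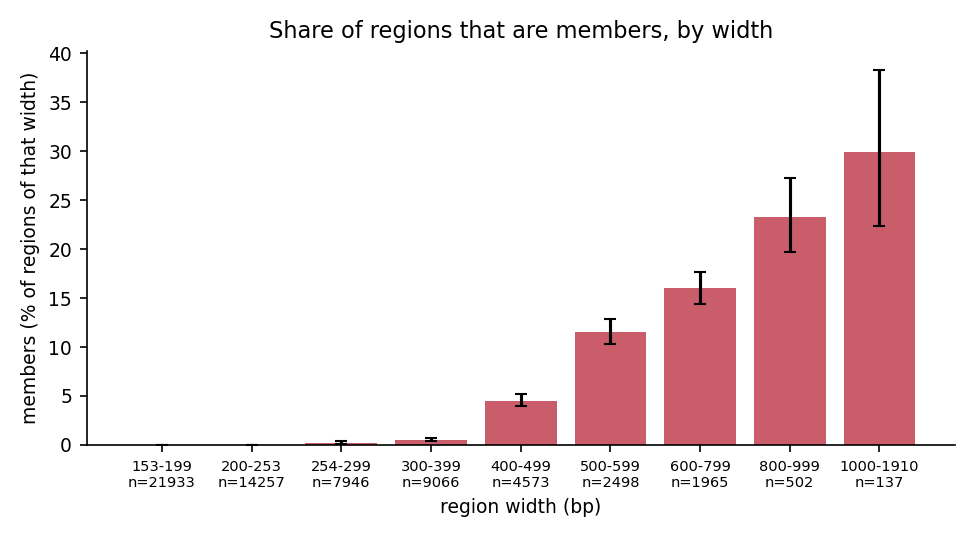
Share of the regions of each width class that were chosen (y axis, percent; bars from 0) by region width in bp (x axis, with the number of regions per class). Error bars are exact 95% binomial intervals; the share is 0 under 254 bp and 29.9% in the widest class.

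The chosen regions were also denser than others of their own width. This follows from the rule, which selects for FAIRE reads over the reference. Among regions of 600 to 799 bp with at most 100 reference reads, the 312 chosen ones held a median of 292 reads per kb in progenitors, 235 at day 1 and 121 at day 10. The 1633 others of that width held 157, 125 and 56.2 reads per kb. In the reference the medians were 38.7 and 39.9 reads per kb. Chosen regions of greater width were less dense. The rule asks for at least 40 reads at every stage whatever the width, so narrow chosen regions have to be dense. At day 10 their median was 146 reads per kb at 400 to 499 bp and 94.4 reads per kb at 1000 bp or more. The narrowest with few reference reads, region 51692 (261 bp), had 85 reads in progenitors, 59 at day 1 and 56 at day 10.

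In the deposited values, enrichment at day 10 was lower than in progenitors in all but 4 of the chosen regions. The same held for 56309 of all 62877 regions, and for all 5651 early-stage regions by their definition. The median log2 difference of day 10 minus progenitors was -1.06, against -0.61 over all regions. Day 10 minus day 1 gave -0.73, and day 1 minus progenitors -0.30. A difference of at least 2-fold downward from progenitors to day 10 was seen in 608 of the 1031 regions, where 21.8% of all regions had one. None had a 2-fold rise, where 0.0414% of all regions had one. The rule uses these same values, and the offset of 16 draws the difference of regions with few reads towards 0, so nothing is read from these counts.

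In the reads themselves the difference depended on the regions of high reference. Over all 1031 chosen regions, the summed reads gave a log2 ratio of day 10 over progenitors of -0.41, against -0.97 over all regions not chosen. For the 1010 chosen regions with at most 100 reference reads, the summed reads were 82355 at day 10 and 189320 in progenitors, a log2 ratio of -1.20 (95% interval -1.21 to -1.19, counting error only). For the other regions with at most 100 reference reads, the ratio was -1.30 (-1.31 to -1.30). The early-stage regions, which the threshold at day 10 had left out, had -1.53 (-1.54 to -1.52). Day 10 decided which regions were taken, so the rule favours a higher ratio in the chosen regions. Nothing is read from these differences. For day 1 over progenitors the ratio was -0.32 in those 1010 chosen regions and -0.38 in the other regions with at most 100 reference reads. The deposited medians, -1.06 in the chosen regions and -0.61 over all regions, thus stood in the opposite order to these ratios of sums.

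Scaling the stages moved the difference across 0. With the reads of each stage scaled to the same total, the median of day 10 minus progenitors was -0.33 in the chosen regions and -0.25 over all regions. On that scale 3 chosen regions were at least 2-fold lower at day 10, where 5.84% of all regions were, and 1 was 2-fold higher, where 0.942% were. With equal stage medians 13 were 2-fold lower and none higher, where 3.23% and 1.17% of all regions were. With totals taken only over the regions of at most 100 reference reads, it was 0.090 in the chosen regions, -0.19 in the early-stage regions and 0.014 over all regions. Here 15 chosen regions were at least 2-fold higher at day 10, where 3.52% of all regions were. None was 2-fold lower, where 2.69% of all regions were. Of the 15, 14 had over 100 reference reads. The direction of change in this set therefore rests on how the stages are put on 1 scale, which the merged values cannot settle.

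**Figure D4:**
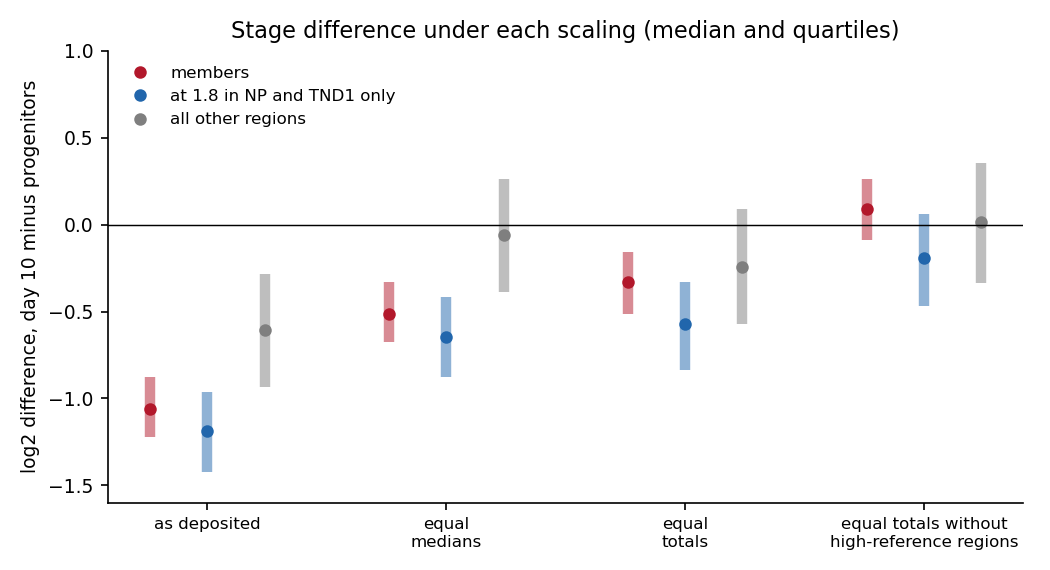
Log2 difference of day 10 minus progenitors (y axis) under 4 ways of scaling the stages (x axis), for the chosen regions (red), the early-stage regions (blue) and all regions not chosen, the early-stage ones included (grey). Dots are medians and bars quartiles; the red median is -1.06 as deposited and 0.090 in the last column.

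The exception among the regions with few reference reads was region 45774. It is 1392 bp wide and had 166 reads in progenitors, 198 at day 1 and 188 at day 10, over 46 reference reads. Its log2 enrichment was 2.60 in progenitors (95% interval 2.39 to 2.80), 2.83 at day 1 and 2.76 at day 10 (2.57 to 2.96). The intervals at day 10 and in progenitors overlap, and this was the only one of the 1010 regions with a higher value at day 10 than in progenitors. On the scale with totals over regions of at most 100 reference reads, its difference was 1.39.

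The largest declines of day 10 minus progenitors belong to regions that were high in progenitors, as the threshold at day 10 requires. Region 46918 (714 bp) had 278 reads in progenitors, 179 at day 1 and 63 at day 10, and its enrichment was 1.82 at day 10, against 3.71 in progenitors. Region 13466 (985 bp) had 251, 215 and 62 reads at the 3 stages, with 1.88 at day 10 against 3.66 in progenitors. Region 46887 (901 bp) had 278, 210 and 71 reads, with 1.90 against 3.66. On the scale without the regions of high reference they lay below the median of the set, with region 46918 at -0.79 and region 13466 at -0.67. That scale multiplies the reads of each stage by a single factor. It thus leaves the order of the regions nearly as it was and adds no separate evidence.

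A small group was set apart by its reference reads. Of the 1031 regions, 21 had over 100 reference reads (2.04%), against 217 in the whole table (0.345%). The number 100 was chosen after the values were seen. The other 1010 regions had 3 to 90 reference reads and the 21 had 106 or more, so no wide gap lies at 100. The cutoff counts reads per region, and the chosen regions were wider than others. These 21 regions make up 0.0898% of the width of the table but held 14.9% of its reads in progenitors, 17.7% at day 1, 23.6% at day 10 and 20.7% of its reference reads. Region 33635 alone, 1155 bp wide, had 209489 reads in progenitors, 247355 at day 1 and 185046 at day 10, over 169092 reference reads. Its enrichment was 2.02, 2.26 and 1.84. A single region of that size thus carried 11% of all reads counted at day 10 and 13.7% of the reference.

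**Figure D5:**
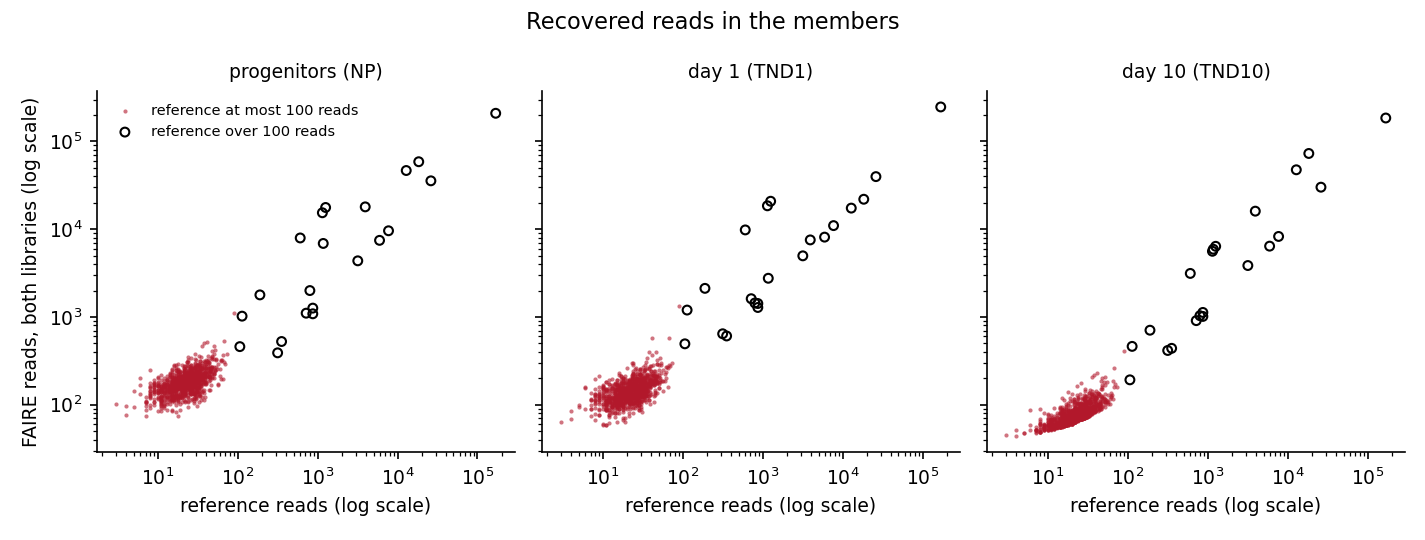
Recovered FAIRE reads of each chosen region (y axis, log scale) against its reference reads (x axis, log scale), 1 panel per stage. Red points are the 1010 regions with at most 100 reference reads and black circles the 21 with more, which extend to 169092 reference reads.

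In the deposited values, the regions of high reference did not share the prevailing order of the stages. A stepwise decline was found in 1 of the 21, against 911 of the other 1010. A peak at day 1 was found in 16 of the 21, against 89 of the others. The contrast narrowed with the reads of each stage scaled to the same total. Day 1 was then above progenitors in 16 of the 21 and in 512 of the other 1010. Regions 62015, 62018, 62020 and 62023, with numbers close to each other, were lowest at day 1. Region 62023 (1334 bp) had 58740 reads in progenitors, 21950 at day 1 and 72975 at day 10, with enrichments of 3.38, 1.97 and 3.70. Region 62020 (846 bp) had 46664, 17397 and 47555 reads, with 3.57, 2.15 and 3.6. In the deposited values, these are the only 2 of the 1031 with their highest value at day 10. The 4 of this block are the only ones with their lowest deposited value at day 1.

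In a second block the reads at day 10 were close to those in progenitors, with more at day 1. Region 58454 (652 bp) had 9597 reads in progenitors, 10992 at day 1 and 8270 at day 10, over 7699 reference reads. Its log2 ratio of day 10 over day 1 reads was -0.41 (95% interval -0.45 to -0.37, counting error only). Region 58476 (993 bp) had 7465, 8124 and 6412 reads over 5944 reference reads, and region 58473 (287 bp) had 4362, 4972 and 3856 over 3174. The log2 ratio of day 10 over progenitor reads lay between -0.22 and -0.18 in these 3, close to the -0.18 of region 33635 and far from the -1.20 of the 1010 regions. Region 58457 (257 bp), numbered among them, differed, with 1999, 1443 and 1034 reads and a ratio of -0.95. The consecutive regions 26049 to 26051, which top the whole set, also belong to the 21, with 1256, 1144 and 604 reference reads. Their ratios of -1.47, -1.46 and -1.34 were in turn lower than the -1.20 of the 1010 regions. Their log2 ratios of day 1 over progenitor reads were 0.24, 0.26 and 0.30, against -0.32 for the 1010. The source of the high reference counts was not tested.

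Of the 1031 regions, these blocks included, 63 (6.11%) had a direct neighbour in number, above or below, that was also chosen. They formed 32 pairs, so the next higher number was also chosen for 3.10% of the 1031. That share compares with the 1.64% of all regions that were chosen. The 6.11% does not, because it counts neighbours on both sides. Cut into 10 equal runs of numbers, the table held between 64 chosen regions (numbers 31440 to 37726) and 151 (numbers 50302 to 56589) per run. An order of the numbers along the genome was not given in the sources used here.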

How the data were processed

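FAIRE-seq libraries of 3 stages, 2 per stage, were grouped by their titles. The authors deposited log2 enrichment values, 1 per region and stage with both libraries merged, and a width in bp. The peak caller and the reference were not given in the sources used here. The submitters' processing notes name TopHat, Bowtie, HTSeq and DESeq, with no roles, and the build mm9.

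Reads were recovered by searching, per region, for the smallest whole reference count at which the reads of all 3 stages were whole. An offset of 16 was the smallest of those tried to do so. Tested on 5000 simulated regions, the recovery returned 100% exactly. The simulation capped the reference reads, so it does not cover the largest references, such as that of region 33635. Intervals are exact Poisson (reads of a region) or exact binomial (ratios and shares) at 95%. Differences were counted from 2-fold (log2 of 1). Regions with over 100 reference reads were set apart after their values were seen. Python 3.11.15, numpy 2.4.6 and scipy 1.17.1 were used.

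Merged values have no spread between replicates, so the planned tests between stages were not run. The regions and comparisons were chosen with earlier results of these data known. Regions named are the 10 with the highest lowest stage, the 5 largest rises and falls, the 5 widest and narrowest, and 5 on each side of the threshold, not all of them printed. Those named for their reference reads were chosen after their values were seen. The H3K27ac and RNA tables are not linked to these regions and were not used here.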

Additional observations from a re-analysis of the deposited data

How the results depend on the processing

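The number of regions depends on every choice that touches the threshold. It was 1956 at a threshold of 1.6 and 455 at 2, against 1031 at 1.8. It was 2419 with equal stage medians, 4751 with equal totals, 6876 with equal totals without the regions of over 100 reference reads, and 19124 with an offset of 1 read. All 1031 were among those chosen in these wider sets except for equal medians, which kept 1026. Apart from equal medians, the settings behind the wider sets lower the threshold or cannot lower a chosen region's values. They could therefore not drop a chosen region. Leaving out the regions of high reference gave 1010. Leaving out regions under the lower quartile of width gave 1031, as it had to, since no chosen region is that narrow. The median width of 586 bp was 553 bp at 1.6, 609 bp at 2, 543 bp with equal medians, 511 bp with equal totals, 489 bp with equal totals without high-reference regions and 311.5 bp with an offset of 1 read.

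The median of day 10 minus progenitors, -1.06 as deposited, was -0.51 with equal medians, -0.33 with equal totals and 0.090 with equal totals without high-reference regions. For day 10 minus day 1, -0.73 as deposited, the values were -0.39, -0.32 and 0.063. For day 1 minus progenitors, -0.30 as deposited, they were -0.10, 0.0050 and 0.040. The 608 regions 2-fold lower at day 10 became 13, 3 and 0 under the same scalings, and the 0 regions 2-fold higher became 0, 1 and 15. Scaling without the high-reference regions, leaving those regions out, and the number and width of regions under equal totals, as well as the width with an offset of 1 read, were chosen after seeing the data.

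No paired analysis was possible because the 2 libraries of a stage are merged in the values. For the same reason no library was left out, and the comparison with H3K27ac regions was not run since the tables share no position. The chosen regions had the fewest reads at day 10, a median of 76 per region, and counting error was widest there.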
